A study of Mus musculus with 23 samples.

Results

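Armc1 is a mouse gene for an armadillo repeat protein. It was followed here in prefrontal cortex at 18, 72 and 192 h after tumour cells or PBS were injected under the skin. The gene is called by its symbol in the platform's probe table. It was chosen by its loess-normalised ratio at 18 h, so every 18 h value below is a description without a test, and only the values at 72 h and 192 h were tested. It is 1 of 8726 gene symbols on the arrays. 2 probes carry the symbol, of 8997 named probes, and both were among the 7364 probes tested at 1 time or more. They are the oligonucleotides for the cDNA entries AK013659 and AK009402, both assigned to gene identifier 74252 and printed as 1 spot each per array. Where on the transcript each oligonucleotide lies is not stated in the files, and no genome position is given because the platform names no build.

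Cortex RNA came from male Balb/c mice aged 8 weeks that received 1000000 CT-26.WT cells (a transplantable colon carcinoma line of that strain) in 300 ul PBS, or 300 ul PBS alone, and that were killed 18, 72 or 192 h later. On each 2-colour array the RNA of a tumour-injected and a PBS-injected sample competed for the same spots, 1 labelled with Cy3 and the other with Cy5, and dye-swap partners carried the opposite labels. The deposit comprised 23 arrays of 11 biological replicates. Of these, 16 arrays of 9 replicates were compared, namely replicates 3, 4 and 5 at 18 h, 3 and 4 at 72 h, and 1 to 4 at 192 h. Per the labels, poly(A) RNA was used for 192 h replicates 1 and 2, and total RNA for the other 7. All replicates at 18 h and 72 h were on print layout 5, and those at 192 h were on layouts 3, 4 and 5. Whether a replicate was 1 animal or a pool is not stated, so p-values measure the spread between these samples. Bulk cortex cannot tell fewer cells of a type from less RNA per cell.

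Armadillo repeats are short helical units that stack into a curved rod on which other proteins bind. In human cell lines, ARMC1 has been placed at the outer mitochondrial membrane, in contact with the machinery that bridges the mitochondrial membranes, and its level affects where mitochondria sit in the cell. Mitochondria in neurons are carried along axons and dendrites by kinesin and dynein motors through outer membrane adaptors. These points are background and carry no value from the arrays.

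The scanner files of the 16 arrays held 1821 to 8638 usable spots each, and the median spot signal was 1.97 to 3.15 times the local background. Another 7 arrays were left out, because the spot intensities did not match the named probes (mean Spearman's rho with arrays of other layouts 0.00857 to 0.0495, against 0.188 to 0.503 on those kept). They include all of replicates 1 and 2 at 72 h. The rule for leaving arrays out was set with values of these data in view. Among the arrays used, the single array of 72 h replicate 3 stood apart, with a mean rho of 0.0672 with arrays of its own layout, next to 0.232 to 0.454 for the other 10 of that layout. Its left-out dye-swap partner had 0.0697. 1 scanner file also stood apart, the third of the Cy3 array of 192 h replicate 3. Its normalised log2 ratios had a median absolute deviation of 0.0921 and correlated with those of the other 2 files at a mean r of 0.124, against 0.217 to 0.540 and 0.415 to 0.890 in the other 47 files. Values without the array of 72 h replicate 3 and without that file are given beside the results. For the tissue check, 54 of the 55 cell type markers present on the arrays gave a usable spot on at least 8 of the 16 arrays. That count included all 9 cortical excitatory neuron and all 9 inhibitory neuron markers, but also all 6 epithelial markers, so a usable spot does not by itself tell cell types apart. None of the markers passed the limma test at any time.

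Both probes gave signal above background, at different brightness. The AK013659 spot was usable in all 48 scanner files of the 16 arrays (3 files per array), and its signal was 5.92 to 175 times the local background. Its background-subtracted intensity ran from 470807 to 12485123 scanner units. It was among the brightest spots of most arrays, with a median of 14 usable spots as bright or brighter. The AK009402 spot was usable in 45 of the 48 files, at 1.65 to 33.0 times the local background, and a median of 587 spots were as bright or brighter. The scanner files give each spot a saturation factor, not defined in their headers, which was 1 for 95.5% of usable spots. For AK013659 it was under 1 in 21 files, and in 2 of these, both of the array of 18 h replicate 5 with tumour RNA in Cy3, the spot carried the saturation mark.

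**Figure D1:**
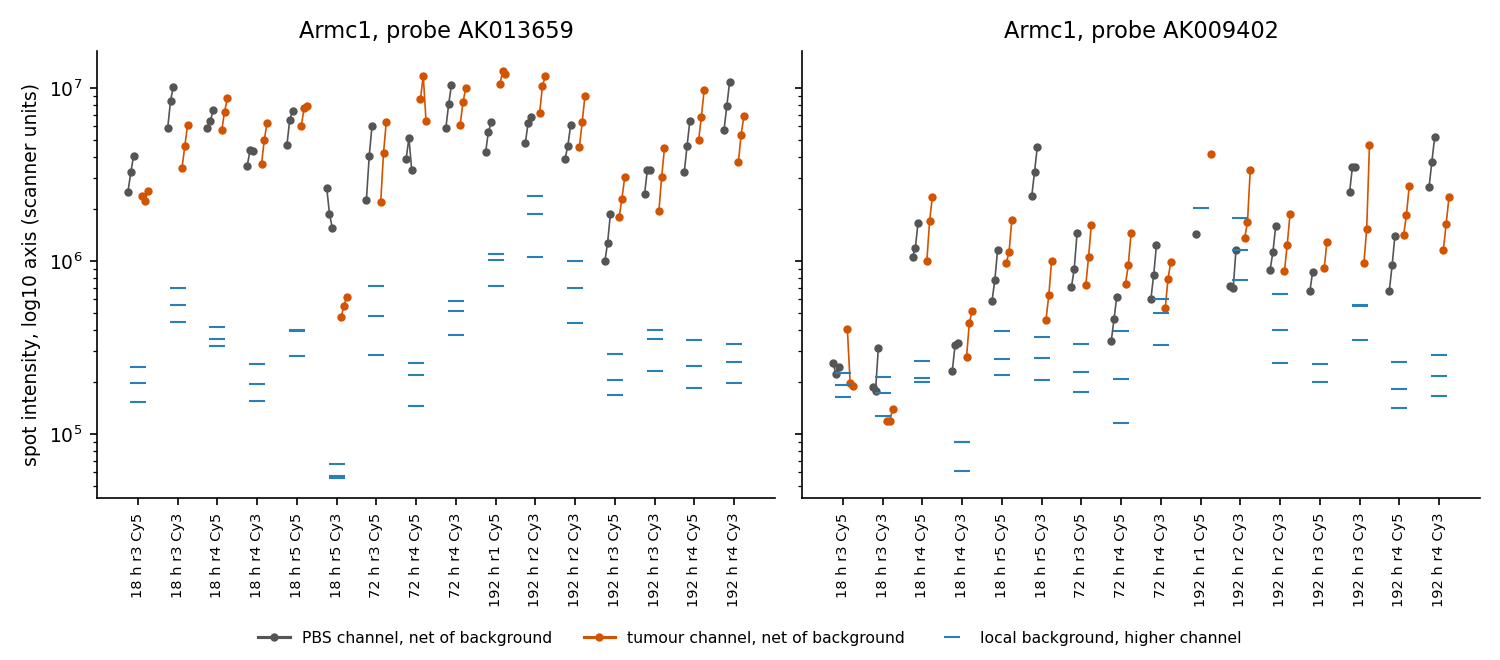
Background-subtracted intensity of the 2 Armc1 spots in each scanner file (log10 axis, scanner units), by array, for the PBS channel (grey) and the tumour channel (orange). Lines join the 3 files of an array, dashes mark the higher of the 2 local backgrounds, and labels give time, replicate (r) and the dye of the tumour RNA. AK013659 stood far above its background on every array, and on the array of 18 h replicate 5 with tumour in Cy3 its PBS signal went down from 2649605 to 1552849 over the 3 files.

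At 18 h the AK013659 value was below 0 in all 3 replicates after loess normalisation. Replicate 3 had a log2 ratio of tumour over PBS of -0.78, replicate 4 of -0.97 and replicate 5 of -0.73. Their mean was -0.83 ± 0.13 (SD, n = 3), which is 0.564 times the PBS level. All 6 arrays were below 0, but they ranged from -0.19 to -1.75. These values chose the gene, by their small spread as well as their size. At 18 h no probe was called (0 of 5733, percent called 0, by the limma test with Benjamini-Hochberg adjustment), and 342 probes (5.97%) had an unadjusted p under 0.05.

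The 2 dye orientations of a replicate should give the same ratio. After loess at 18 h they differed by more than the median probe in replicates 3 and 4, and by less in replicate 5. Replicate 3 gave -0.48 with tumour RNA in Cy5 and -1.09 with it in Cy3. Replicate 4 gave -0.19 in Cy5 and -1.75 in Cy3. Replicate 5 gave -0.92 in Cy5 and -0.54 in Cy3. The gap of 1.55 in replicate 4 was as large as or larger than that of 95.5% of the 4199 probes measured in both orientations there, where the median gap was 0.37. The gap of 0.61 in replicate 3 was at the 80.9th percentile and the gap of 0.39 in replicate 5 at the 47.4th. The sign of the gap also differed: the Cy5 array was higher in replicates 3 and 4, and lower in replicate 5. With only the array median subtracted, replicate 3 was at -0.56 in Cy5 and 0.19 in Cy3. Replicate 4 was then at 0.32 in Cy5 and 0.15 in Cy3, and replicate 5 at -0.93 and -1.005.

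**Figure D2:**
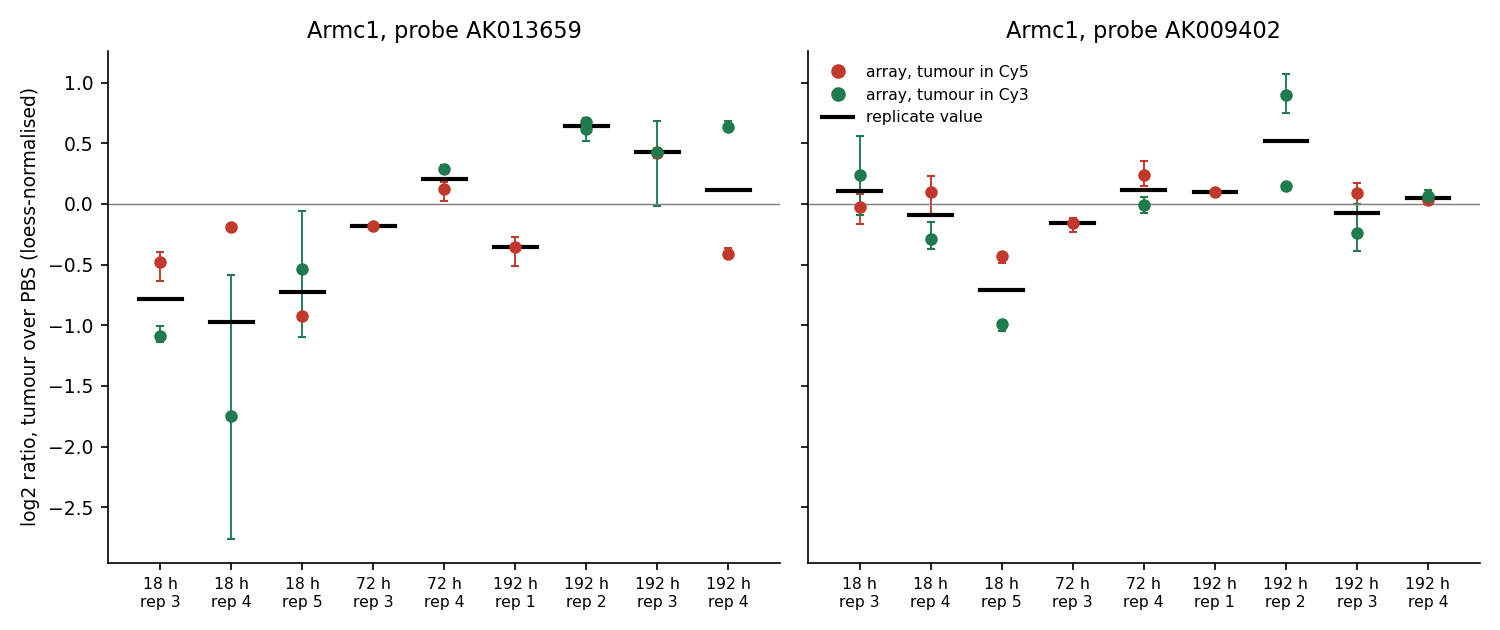
Loess-normalised log2 ratio of tumour over PBS for the 2 Armc1 probes. Points are arrays, coloured by the dye of the tumour RNA, with bars from the lowest to the highest of their scanner files, and black lines are replicate values. For AK013659 all 6 arrays at 18 h lay below 0, with a bar from -2.77 to -0.59 on the Cy3 array of replicate 4. AK009402 lay clearly below 0 in replicate 5 alone.

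Within an array, the 3 scanner files mostly repeated each other. The median range of the AK013659 ratio over the 3 files was 0.11, but on 2 of the arrays at 18 h it was over 1. On the Cy3 array of replicate 4, the 3 files gave -0.59, -2.77 and -1.89. On the Cy3 array of replicate 5 they gave -1.09, -0.46 and -0.06. In that replicate the saturation factor went from 0.252 to 0.193 and 0.159 over the same files. The PBS signal of the spot went down from 2649605 to 1870576 and 1552849 there, while that of the dimmer AK009402 spot on the same array went up from 2359074 to 3258659 and 4537557.

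Before loess normalisation, the picture at 18 h was different for replicates 3 and 4. With only the array median subtracted, replicate 3 of AK013659 stood at -0.19, replicate 4 at 0.23 and replicate 5 at -0.97. By array, 3 of 6 were below 0, and the values ran from -1.005 to 0.32. The loess curve had moved the AK013659 spot, relative to the array median, by 1.27 on the Cy3 array of replicate 3 and by 1.90 on the Cy3 array of replicate 4. On the other 4 arrays at 18 h the move was between -0.47 and 0.51.

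The AK013659 spot lay at the bright end of that curve. On the Cy3 array of replicate 4, 0 to 3 of the 4394 to 5186 usable spots were as bright. Only 12, 5 and 7 spots of the 3 files were within 1 log2 unit of it in intensity, and all of them lay below the loess curve. The medians of their ratios before normalisation were -0.05, 0.05 and 0.37, next to 0.03, 0.20 and 0.54 for AK013659 and to curve values of 0.62, 2.97 and 2.43. Against spots of like intensity the ratio of AK013659 was therefore 0.08, 0.16 and 0.17 higher, and not lower. On the Cy5 array of replicate 4 it was lower by 0.14 to 0.15 against 30 to 54 such spots.

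In replicates 3 and 5 the same comparison left AK013659 low. In replicate 3 it was below the median of spots of like intensity by 0.38 to 0.62 on the Cy5 array, against 29 to 53 spots. It was below by 0.72 to 0.94 on the Cy3 array, against 8 to 13 spots. In replicate 5 the Cy5 array gave a ratio lower by 0.91 to 0.92 against 179 to 239 spots, nearly the same in all 3 files. The Cy3 array, where the spot was saturated, gave a ratio lower by 1.08, 0.44 and 0.07 in the 3 files.

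**Figure D3:**
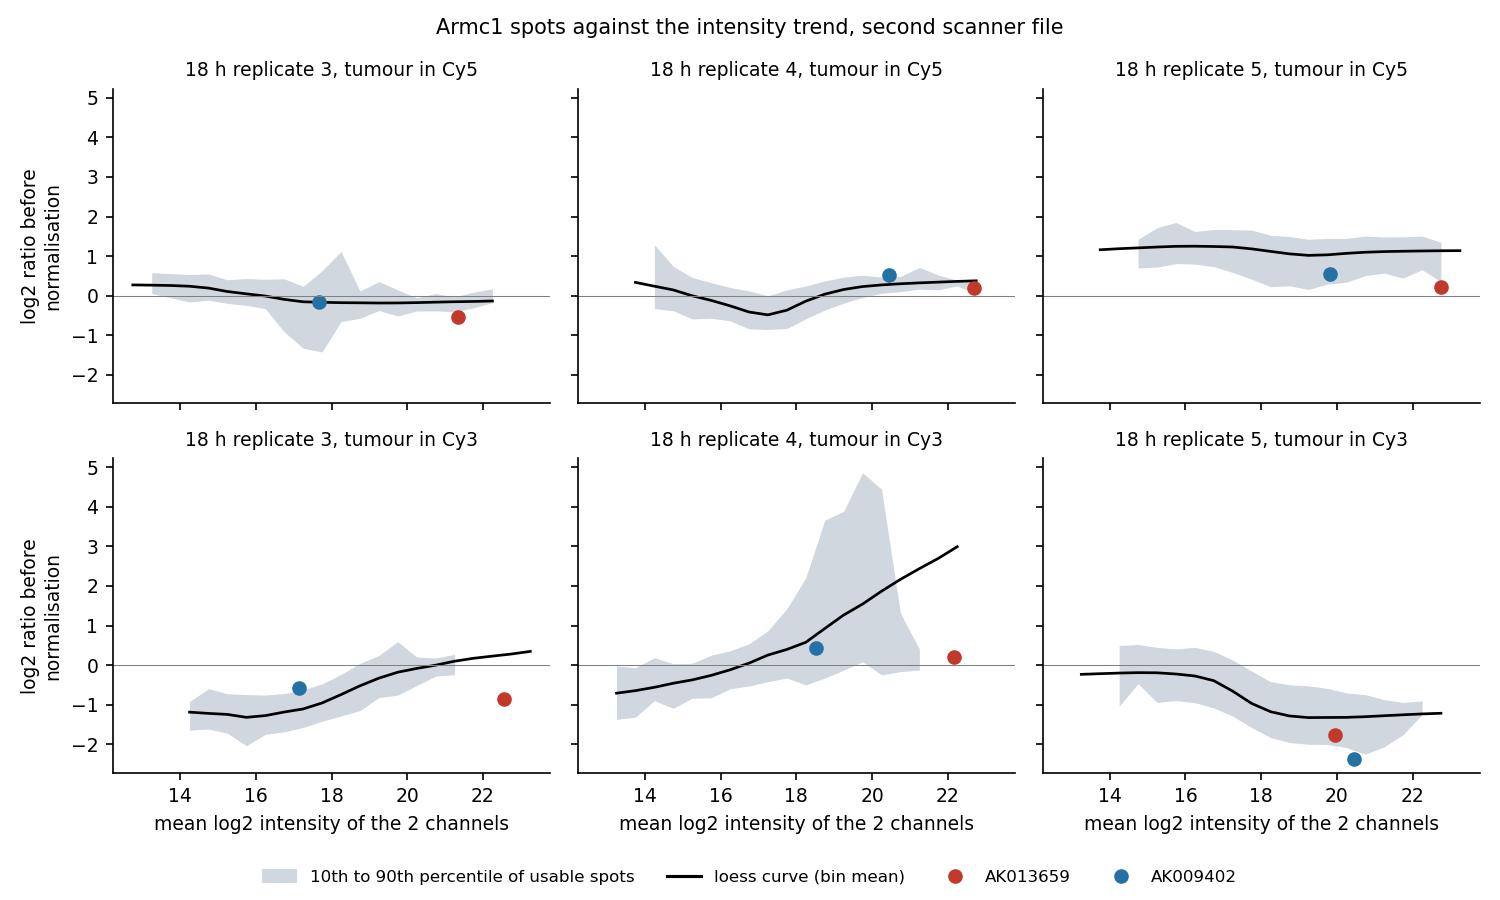
Log2 ratio of tumour over PBS before normalisation against the mean log2 intensity of the 2 channels, in the second scanner file of each array at 18 h. The grey band holds the 10th to 90th percentile of usable spots in steps of 0.5 with at least 5 spots, the black line is the loess curve, and the red and blue points are the 2 Armc1 probes. On the Cy3 array of replicate 4 the curve climbs to 2.97 at the AK013659 spot, whose own ratio was 0.20.

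The replicate values therefore depended on how the intensity trend was removed. When a running median of 41 spots in intensity order took the place of loess, an alternative chosen after these values were seen, replicates 3, 4 and 5 gave AK013659 values of -0.62, -0.05 and -0.69. Loess inside each printed sub-grid gave -0.19, -0.06 and -0.68. In the authors' deposited table, the scores of AK013659 were -0.0086 and -0.022 in replicate 3, -0.010 and 0.026 in replicate 4 and -0.87 on the Cy5 array of replicate 5, turned to tumour over PBS, and its value on the Cy3 array was missing. The log base and normalisation of that score are not stated. Across these versions, replicate 5 was low in each, and replicate 4 was near 0 in 3 of them.

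**Figure D4:**
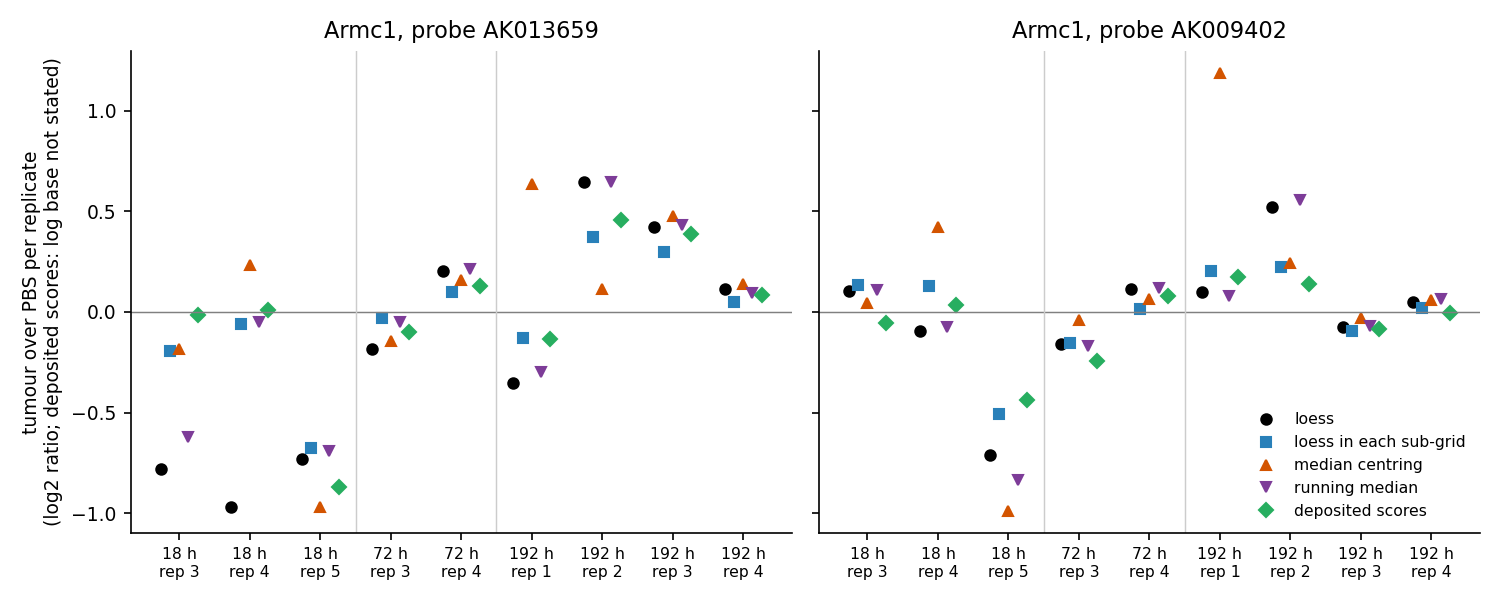
Value of the 2 Armc1 probes in each replicate after global loess, loess in each sub-grid, array median centring and running median, and in the deposited scores (log base not stated, so only their sign and order can be read). For AK013659 at 18 h the log2 versions spread from -0.97 to 0.23 in replicate 4, while all 4 lay between -0.97 and -0.68 in replicate 5. The deposited score there, from the Cy5 array alone, was also below 0.

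The second probe, AK009402, was low in replicate 5 alone at 18 h. Replicate 3 stood at 0.11 (log2 ratio), replicate 4 at -0.09 and replicate 5 at -0.71, a mean of -0.23 ± 0.43 (SD, n = 3). The 2 arrays of replicate 5 gave -0.43 and -0.99. The probe's 4 arrays of replicates 3 and 4 ranged from -0.28 to 0.24. Without replicate 5 its 18 h mean was 0.0069. The loess curve moved the AK009402 spot by at most 0.62 in size at 18 h, and its array-median-centred values were 0.04, 0.42 and -0.99. The authors' deposited table gave AK009402 scores of -0.29 and -0.59 in replicate 5, and of -0.066 to 0.069 on the 4 arrays of the other replicates.

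Replicate 5 was thus the replicate in which both probes were low, at -0.73 and -0.71, and the 2 arrays of each probe were below 0. It was also the 18 h replicate that spread most over all probes. The median gap between its orientations was 0.41, next to 0.28 and 0.37 in replicates 3 and 4. The files of its Cy3 array had the widest log2 ratios of all files, with a median absolute deviation of 0.51 to 0.54. In replicates 3 and 4 the probes differed by 0.89 and 0.88. Over all 9 replicates the 2 probes had a Pearson r of 0.56 and a Spearman rho of 0.47, with the same sign in 6. Over the 16 arrays r was 0.44, with the same sign in 10. These are descriptions over points that share arrays, and replicates 5 of 18 h and 2 of 192 h hold the lowest and highest AK009402 values.

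At 72 h neither probe passed the test. AK013659 stood at -0.18 in replicate 3, measured on 1 array with tumour RNA in Cy5, and at 0.21 in replicate 4, whose 2 arrays gave 0.12 and 0.29. The replicate values lay on both sides of 0. The fit, which includes the dye orientation because replicate 3 had only 1, estimated 0.25 ± 0.16 (SE, 95% interval -0.09 to 0.59, n = 2, limma adjusted p = 0.999). This fitted value lay above both replicates, whose plain mean was 0.01. Without replicate 3, the array that stands apart, the value was 0.21. The dye coefficient is shared by all times and is set by the replicates with only 1 orientation. Besides 72 h replicate 3 these were 192 h replicates 1 and 2, at -0.35 in Cy5 and 0.65 in Cy3. Both were poly(A) RNA on print layout 3, while the 72 h replicates were total RNA on layout 5. AK009402 stood at -0.16 and 0.12, with a fitted value of 0.09 ± 0.21 (SE, 95% interval -0.37 to 0.56, limma adjusted p = 0.999). Without 72 h replicate 3 it was 0.12, without 72 h replicate 4 0.05, without 192 h replicate 1 0.19 and without 192 h replicate 2 0.0047, since all times share the dye term. Of all 4440 probes tested at 72 h, 1 was called (0.0225%), Spata48 at 3.39 ± 0.22 (SE), and 0 without the file that stands apart, while 65 (1.46%) had an unadjusted p under 0.05. Neither Armc1 probe was among the latter.

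The left-out dye-swap partner of 72 h replicate 3 gave higher values, 0.89 for AK013659 and 1.69 for AK009402. That array was left out for the reason given above. With all 23 arrays and the names as deposited, the 72 h values were 0.39 for AK013659 (unadjusted p = 0.011, limma adjusted p = 0.447) and 0.48 for AK009402 (unadjusted p = 0.016, limma adjusted p = 0.485). Neither was called, and under the alternatives tried at 72 h the limma adjusted p ran from 0.447 to 0.9999 for AK013659 and from 0.485 to 0.9999 for AK009402.

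At 192 h AK013659 was above 0 in 3 of 4 replicates. Replicate 1 had a log2 ratio of -0.35, replicate 2 of 0.65, replicate 3 of 0.42 and replicate 4 of 0.11. Replicate 1 was 1 array with tumour RNA in Cy5, and replicate 2 was 2 arrays with tumour RNA in Cy3, at 0.68 and 0.62. The 2 orientations of replicate 3 gave 0.42 in Cy5 and 0.43 in Cy3, but the latter averages 3 files at 0.62, 0.68 and -0.01, the last being the file that stands apart. Without that file the Cy3 array was at 0.65 and the replicate at 0.54. Those of replicate 4 were -0.41 in Cy5 and 0.64 in Cy3, a gap that was as large as or larger than that of 95.9% of 6625 probes. The sign of the ratio thus differed between the 2 arrays, and their mean was 0.11.

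The fitted AK013659 value at 192 h was 0.21 ± 0.10 (SE, 95% interval -0.01 to 0.43, n = 4, limma adjusted p = 0.999, unadjusted p = 0.063). It was 0.24 without the scanner file that stands apart and 0.14 without replicate 3. Before loess, with only the array median subtracted, all 7 arrays at 192 h were above 0, from 0.11 to 0.68. That version keeps the intensity trend, and after loess 2 of the 7 were below 0. Against the median of spots of like intensity, those 2 also lay lower. The array of replicate 1 differed by -0.48 to -0.27, and the Cy5 array of replicate 4 by -0.42 to -0.34. The other arrays were higher by 0.36 to 0.71, apart from the file that stands apart (-0.02). Among the poly(A) replicates the loess values were -0.35 and 0.65, and among the total RNA replicates 0.42 and 0.11. On print layout 5, which also holds the earlier times, replicate 4 was the only 192 h replicate. AK009402 stood at 0.10, 0.52, -0.08 and 0.05, with a fitted value of 0.15 ± 0.14 (SE, 95% interval -0.15 to 0.45, limma adjusted p = 0.999). Its value in replicate 1 rests on 1 usable scanner file, and was 1.19 with only the array median subtracted. Without the file that stands apart the fitted value was 0.13, without replicate 1 0.02, without replicate 2 0.04 and without replicate 3 0.22. Of 6465 probes tested at 192 h, 1 was called (0.0155%), Krtap13 at 2.23 ± 0.16 (SE), and 240 (3.71%) had an unadjusted p under 0.05. Neither Armc1 probe was among these.

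From 72 h to 192 h no difference passed the test for either probe. The AK013659 difference, 192 h minus 72 h, was -0.04 ± 0.19 (SE, 95% interval -0.45 to 0.36, limma adjusted p = 0.9996), and that of AK009402 was 0.06 ± 0.25 (SE, 95% interval -0.50 to 0.61, limma adjusted p = 0.9996). In this comparison 1 of 4241 probes was called (0.0236%), Spata48 at -3.22 ± 0.27 (SE), and 0 without that file, while 139 (3.28%) had an unadjusted p under 0.05, neither Armc1 probe among them. Against 18 h, the fitted AK013659 value was higher by 1.08 at 72 h and by 1.03 at 192 h, and that of AK009402 by 0.32 and 0.38. Spata48 and Krtap13 were named after their values were seen. The differences from 18 h rest on the 18 h values that chose the gene and were not tested.

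The levels in tumour and PBS samples were more variable than their ratio. They are not separate readings: each is the mean log2 intensity of both channels, with the normalised ratio split evenly between the 2. Their gap therefore restates the ratios above, at 18 h those that chose the gene. The centring uses usable spots only, whose number differs between files. On the Cy5 array of 18 h replicate 3, usable spots went from 4502 to 2343 and 1821. The centred mean intensity of AK009402 there went from 3.00 to 1.63 and 0.98. Centred on the array median, the PBS level of AK013659 on a log2 scale was 5.00 ± 1.03 (SD, n = 3) at 18 h, 3.42 ± 1.10 (n = 2) at 72 h and 3.97 ± 1.15 (n = 4) at 192 h. The tumour level was 4.17 ± 0.96, 3.43 ± 1.38 and 4.18 ± 0.89 at the 3 times. In order, the PBS levels ran 18 h, 192 h, 72 h. The neighbours in that order differed by 1.03 or less, no more than their SDs, while the highest and the lowest, 5.00 and 3.42, differed by more than either SD. For AK009402 the PBS level was 1.89 ± 0.95, 0.87 ± 0.22 and 2.31 ± 1.27, and the tumour level 1.65 ± 0.62, 0.84 ± 0.41 and 2.46 ± 1.05. Print layout and RNA type differ between times, and their part in these levels was not tested.

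The genes whose values ran most like AK013659 were Wdr13, Eif3c, Kctd1, Tprgl and Sucla2, among 767 other probes with a value in all 9 replicates. Pearson's r with AK013659 was 0.88 for Wdr13 (a WD repeat protein), 0.88 for Eif3c (a subunit of translation initiation factor 3), 0.87 for Kctd1 (a BTB domain protein), 0.84 for Tprgl and 0.81 for Sucla2 (a subunit of mitochondrial succinyl-CoA synthetase). The root mean square difference was 0.36 to 0.40 for the 5 genes. All 5 were below 0 in the 3 replicates at 18 h, as was AK013659, but less low: Eif3c was at -0.20, -0.47 and -0.05, and Kctd1 at -0.23, -0.29 and -0.28. All 5 were above 0 in 192 h replicate 2 and below 0 in 192 h replicate 1. The 9 points share arrays and normalisation curves with AK013659, and the likeness uses the 18 h values. Under other processing the lowest r was 0.19 for Wdr13, 0.34 for Eif3c, 0.38 for Tprgl, 0.37 for Sucla2 and 0.62 for Kctd1.

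**Figure D5:**
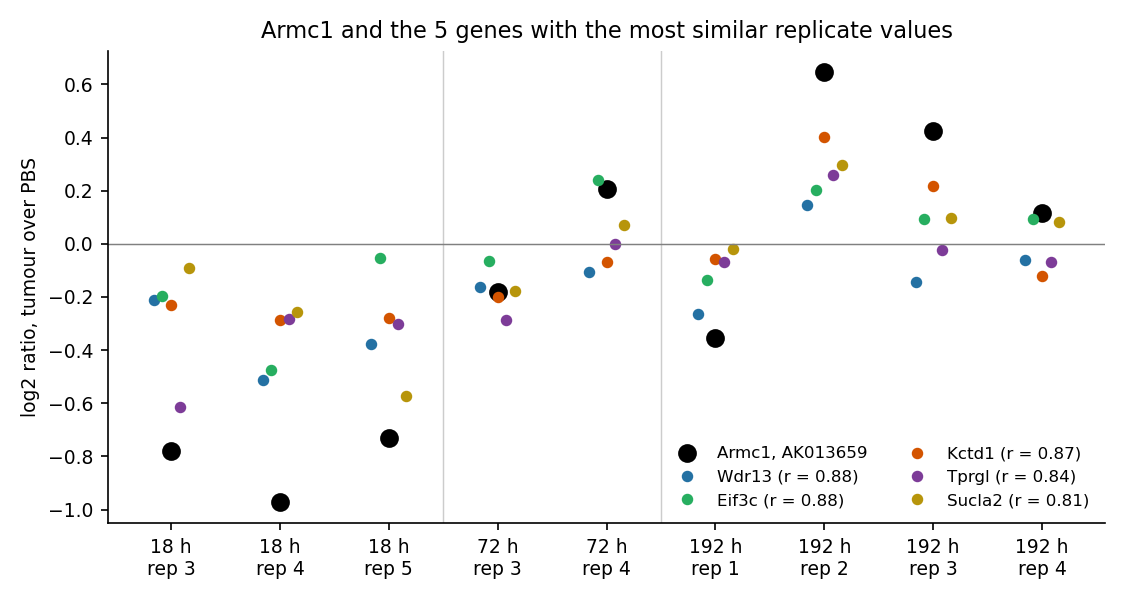
Log2 ratio of tumour over PBS in each replicate for Armc1 (AK013659, large black points) and the 5 genes with the highest Pearson r with it. Every one of the 5 genes was below 0 in the 18 h replicates and above 0 in 192 h replicate 2, but the order of the replicates differed between genes.

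For AK009402 the 5 most similar genes were others: Psd3 (0.95), Chchd3 (0.95), Naa15 (0.95), Selenop (0.94) and Clasp2 (0.93). Under other processing the lowest r was 0.49 for Naa15, 0.63 for Psd3, 0.69 for Clasp2, 0.69 for Selenop and 0.83 for Chchd3. Each was lowest in 18 h replicate 5, as AK009402 was. Chchd3, a subunit of the complex that shapes cristae junctions, had a log2 ratio of -0.63 there, next to -0.01 and -0.19 in the other 18 h replicates. Psd3 was at -1.33, Selenop at -1.23 and Clasp2, a microtubule plus end protein, at -1.74 in the same replicate.

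The genes of mitochondrial membrane bridging were taken as a list because ARMC1 has been found with them in human cells. Of 12 genes listed, 7 were on the arrays and 5 were tested at 18 h, 7 at 72 h and 7 at 192 h. None passed the limma test at any time. At 18 h 3 were above and 2 below 0, with a median log2 ratio of 0.09 against -0.02 over all probes. Under other processing that median ran from -0.36 to 0.27 and was below 0 in 4 of 15 alternatives, and it was -0.04 without 18 h replicate 4. Micos13, a subunit of the cristae complex, stood at 0.48, 0.14 and 0.43 at 18 h (fitted 0.35 ± 0.13, SE, limma adjusted p = 0.775). Chchd3 was fitted at -0.28 ± 0.14 at 18 h (limma adjusted p = 0.819). At 72 h the 2 smallest p-values belonged to Mtx1, an outer membrane import protein, and to Immt, the cristae complex core. Mtx1 was fitted at -0.39 ± 0.16 (SE) and Immt at -0.60 ± 0.30, both at a limma adjusted p of 0.999. Replicates 3 and 4 were at 0.05 and -0.29 for Mtx1, and at -0.81 and 0.05 for Immt. The fit includes the dye orientation, and the fitted Mtx1 value lay below both replicates. At 192 h Apool, another subunit, was at -0.49, -0.05 and -0.39 in its 3 replicates and Immt at 1.18, -0.35, 0.46 and 0.06 (limma adjusted p = 0.999 for both).

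Among genes of mitochondrial transport and dynamics, 12 of 28 listed were tested at 18 h, 9 at 72 h and 13 at 192 h, and none passed. At 18 h 9 of 12 were below 0, with a median of -0.13 against -0.02 over all probes. Over the members measured in each replicate, the medians were -0.01, -0.05 and -0.27 in replicates 3, 4 and 5. Mtfr1l, a fission regulator relative, was at -0.21 ± 0.12 (SE) at 18 h and Oma1, an inner membrane protease, at 0.27 ± 0.17 (limma adjusted p = 0.819 and 0.842). At 72 h Mul1, an outer membrane ubiquitin ligase, stood at -0.36 and -0.11, and Mtfr1l at -0.20 and -0.06. At 192 h Gdap1, an outer membrane protein that affects fission, was below 0 in its 3 measured replicates at -0.58, -0.01 and -0.65. Kif5c, a neuronal kinesin motor, was at 0.07, -0.67 and -0.03 there. All 4 had a limma adjusted p of 0.999.

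Other armadillo repeat genes were mostly below 0 at 18 h, again without a call. Of 37 listed genes, 12 were tested at 18 h, and 11 of the 12 were below 0, with a median of -0.19 against -0.02 over all probes. The list includes Odad3, a coiled-coil protein of ciliary dynein docking that is no armadillo protein. Without it 10 of 11 were below 0, also with a median of -0.19. Kifap3, the armadillo subunit that links kinesin-2 to its cargo, had -0.11, -0.27 and -1.21 (fitted -0.53 ± 0.18, SE, limma adjusted p = 0.759). Ctnnd1, p120 catenin, had -0.22 and -0.40 in 2 replicates (limma adjusted p = 0.819). The list stood at 5 above and 4 below at 72 h (median 0.03, or -0.04 without Odad3), and at 7 above and 8 below at 192 h (median -0.01, or 0.0060 without Odad3). Armcx1, an armadillo repeat protein of the outer mitochondrial membrane, was at -1.13 and 0.13 at 72 h, and Ctnnd1 at 0.04 and -0.36. At 192 h Kpna6, an importin alpha, was at 0.77, -0.20 and 0.37, and Apc2 at 1.04, -0.26, 0.16 and -0.14.

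Outer membrane import and contact proteins showed 10 of 15 tested genes below 0 at 18 h, with a median of -0.18 against -0.02 over all probes, and none called. Over the members measured in each replicate, the medians were 0.04, -0.15 and -0.16 in replicates 3, 4 and 5. Bnip3, a receptor for the removal of mitochondria, was at -0.03, -0.42 and -1.15 (fitted -0.53 ± 0.18, SE, limma adjusted p = 0.759). Vdac3, an outer membrane channel, was at -0.55 and -0.31 in its 2 replicates (fitted -0.43 ± 0.15). The medians were -0.09 at 72 h and 0.01 at 192 h. At 72 h the smallest p-values belonged to Bak1 and Bcl2l1, members of the Bcl-2 family, at 0.22 ± 0.18 and -0.20 ± 0.17. Their 72 h replicates were at -0.06 and 0.11 for Bak1, both below its fitted value, and at 0.10 and -0.27 for Bcl2l1. At 192 h Fundc1, another receptor for mitochondrial removal, was above 0 in its 3 replicates (fitted 0.29 ± 0.13, SE, limma adjusted p = 0.999), and Bak1 was at -0.68 and 0.22.

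Markers of some cell types also lay off 0 at 18 h. All 8 inhibitory neuron markers tested then were below 0, with a median of -0.11, and the medians of the 3 replicates ran from -0.34 to 0.07. The 3 microglia and macrophage markers were below 0 (median -0.17) and the 7 excitatory neuron markers had a median of 0.01. Both striatum markers tested were below 0 (median -0.51), as was the 1 blood marker (-0.33). Over the markers measured in each replicate, the medians were 0.16, -0.95 and -0.24 for striatum, and -0.05, -0.89 and 0.26 for blood. Choroid plexus and meninges markers had 2 of 3 above 0 (median 0.17), with replicate medians of 0.56, 0.34 and 0.13 over the markers measured in each. Astrocyte markers had 3 of 4 probes above 0 (median 0.13), but replicate medians of -0.22, -0.20 and 0.45. None was called, and their part in the Armc1 values was not tested.

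Of the 6 measured genes nearest to Armc1, 4 were tested at 18 h, and their values lay from -0.05 to 0.27. Counted in genes from Armc1, the 6 stood at 1, 2 and 21 on one side and at -9, -12 and -48 on the other, so most are not adjacent to it. Mtfr1, a mitochondrial fission regulator and the next gene on one side in the reference gene order, was at 0.11, -0.08 and -0.18 at 18 h, fitted at -0.05 ± 0.13 (SE, limma adjusted p = 0.982). Its fitted values were -0.04 ± 0.17 at 72 h and 0.08 ± 0.13 at 192 h, both at a limma adjusted p of 0.999. The 72 h replicates of Mtfr1 were at -0.13 and -0.09, both below the fitted value. Further out on that side, Pde7a was at 0.27 ± 0.16 and Cp at -0.03 ± 0.15 at 18 h. On the other side, Car1 was at 0.03 ± 0.19 at 18 h, and Cyp7b1 and Cypt12 had fewer than 2 replicates then. At 192 h these 6 genes ranged from -0.34 for Pde7a to 0.26 for Car1, and none was called. Overlapping transcripts cannot be resolved by these oligonucleotides, whose positions were not used here.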

How the data were processed

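The scanner files give, per the file headers, a linear spot intensity in both channels from which the authors' software had subtracted the local background, and that background. The authors' deposited table holds 1 score per spot and array, whose log base and normalisation are not given in the sources used here. The headers do not name the dyes. Cy3 was assigned to channel A and Cy5 to B, because the deposited scores then correlate with the turned ratios (r from 0.562 to 0.880 over spots of the arrays used). With the opposite assignment every direction would turn.

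Spots marked as small or without signal were left out, and saturated spots were kept. The log2 ratio was normalised in every scanner file by global loess (span 0.3, 4 iterations), averaged over 3 files and then over a replicate's arrays, with both orientations required in a dye swap. Arrays entered when their mean rho with reference arrays of other layouts was at least 0.1, a rule set with values of these data in view. Reference arrays were those on which 92 probes for ribosomal and respiratory chain genes had a median intensity percentile of 75 or more. For each probe, times with 2 or more replicates got a mean, beside 1 coefficient for dye orientation, and the spread was shared over probes (limma 3.58.1, R 4.3.3). p-values were adjusted over all probes by Benjamini-Hochberg, with a threshold of 0.05. This is the limma test. The reference gene table (assembly GRCm38.p6) served for current symbols and gene order only.

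Named genes were the 5 probes with the highest r, the 2 members per list and time with the smallest p and the nearest 3 measured genes on either side. The members and lists were chosen with earlier results of these data known. Alternatives changed the background, normalisation, filters, scanner files, arrays, scaling, dye term, print layout, deposited scores and replicates.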

Additional observations from a re-analysis of the deposited data

Results flagged for a closer look

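37 groups of 4, 6 or 7 values were checked for a value far from the rest by Dixon's ratio, and 4 stood out, where chance gives about 1 in 20. One was an Armc1 array value: at 192 h, AK009402 had a log2 ratio of 0.90 on 1 of the 2 arrays of replicate 2, and the other 6 arrays lay between -0.24 and 0.15. The Armcx1 ratio of 1.05 in 192 h replicate 1 lay above -0.01, -0.01 and -0.13 in the other replicates. Selenop stood at 0.32 and Tprgl at 0.26 in 192 h replicate 2, and in the other replicates Selenop lay from -0.07 to -0.04 and Tprgl from -0.07 to -0.02. Selenop and Tprgl were checked because their values ran like those of an Armc1 probe, and both Armc1 probes were highest in that same replicate. A high value there was thus favoured by the choice of these genes. Many of the groups also share arrays, so the count of 4 cannot be set against 1 in 20. All 4 values were in the poly(A) replicates, and the cause was not tested.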

How the results depend on the processing

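Of the alternatives tried, none gave an Armc1 call at 72 h, at 192 h or between them. At 18 h AK013659 stayed below 0 in the alternatives tried, but its size moved. It was -0.31 with median centring, -0.31 with loess in each sub-grid, -1.09 without background subtraction, -0.98 with the second scanner file alone and -0.51 with spots at least as bright as the background. It was -0.0036 in the deposited scores, where replicate 5 lacked 1 orientation and dropped out. Chosen after the data were seen, other settings gave -0.95 for spots with a saturation factor of 1, where replicate 5 dropped out, and -0.45 with a running median. Leaving out 1 replicate gave -0.88 to -0.75, and the choice of the gene at 18 h favoured such a narrow range. The cause of these moves was not tested.

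Directions without a call turned as follows. For AK013659 the 72 h value was -0.067 with median centring. The 192 h minus 72 h difference was 0.41 with median centring, 0.027 with the second scanner file, 0.20 without the dye term, 0.046 in the deposited scores and 0.063 with a saturation factor of 1, and -0.12 to 0.065 when 1 replicate was left out. For AK009402 the 72 h value was -0.16 with median centring, -0.049 with sub-grid loess, -0.022 without the dye term and -0.055 in the deposited scores, and the 192 h value was -0.029 with the first scanner file. Its 192 h minus 72 h difference was -0.14 without background subtraction, -0.22 and -0.18 with the first and second scanner file, -0.17 with spots at least as bright as the background and -0.34 with all 23 arrays, and -0.17 to 0.13 with 1 replicate left out. Its 18 h value was -0.40 to 0.0069 with 1 replicate left out, the highest without replicate 5. In the deposited scores the 192 h value of AK013659 had an unadjusted p of 0.0048, and the lowest limma adjusted p for it at 192 h was 0.979, without 192 h replicate 4.

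With the replicate number as a replicate block, the 192 h minus 72 h difference of AK013659 was 0.26 and no probe was called (0). The numbers share no stated animal or batch, so the pairing was not used. Over 769 probes, same-numbered samples of 72 h and 192 h had deviations from the mean of their time that correlated at -0.13 and 0.0024. The deviations of the 2 replicates at 72 h mirror each other by construction, so these correlations cannot decide whether the numbers pair samples.

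Counts of called probes were small in the settings tried. At 18 h 1 probe was called with spots at least as bright as the background and 1 with print layout as a random block, and 0 to 0 with 1 replicate left out. At 72 h the count was 7 with median centring, 4 with all 23 arrays, 0 without background subtraction, with the first or second scanner file, with brighter spots, without the dye term or without the third file of the Cy3 array of 192 h replicate 3 (an alternative chosen after the data were seen), and 0 to 10 with 1 replicate left out. At 192 h it was 0 in 7 alternatives, and 0 to 1 with 1 replicate left out. For the difference it was 3 with all 23 arrays, 0 in 10 alternatives, that one included, and 0 to 4 with 1 replicate left out. Leaving out 1 replicate moved the AK013659 value between 0.20 and 0.32 at 72 h and between 0.14 and 0.27 at 192 h, and that of AK009402 between 0.0047 and 0.19 and between 0.02 and 0.22. Where 1 replicate is left out at 72 h, the lone one is assumed to vary like the other groups.

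Among named genes, signs turned with all 23 arrays for Mul1 (0.011), Mtfr1l (0.17), Armcx1 (0.17) and Mtfr1 (0.034), all at 72 h. Mtfr1l was 0.074 there without background subtraction, and Armcx1 0.13 and Mtfr1 0.054 with brighter spots. Mtfr1 was 0.054 at 72 h with the third scanner file and 0.041 at 18 h in the deposited scores. At 192 h Apc2 was -0.035 with sub-grid loess and Bak1 0.10 with median centring. With 1 replicate left out, the 72 h values ran from -1.58 to 0.047 for Immt, -1.66 to 0.13 for Armcx1, -0.36 to 0.039 for Ctnnd1 and -0.15 to 0.040 for Mtfr1. Mtfr1 ran from -0.13 to 0.013 at 18 h and from -0.11 to 0.21 at 192 h.

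List medians turned in part as well, in 15 alternatives each. At 18 h the cristae and bridging list was below 0 in 4, and the other 3 lists were below 0 in all 15. At 72 h the cristae and bridging list was above 0 in 6, the transport list in 4 and the outer membrane list in 2, and the armadillo list was below 0 in 9. At 192 h the cristae and bridging list was below 0 in 2 and the outer membrane list in 1, and the transport list was above 0 in 1 and the armadillo list in 6.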
